A study of Homo sapiens with 12 samples.

Results

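Kruppel-like factors are transcription factors that bind GC-rich and CACCC-type promoter elements through a carboxy-terminal array of C2H2 zinc fingers. The family is commonly divided by what the rest of the protein recruits. KLF2, KLF4, KLF5, KLF6 and KLF7 carry activating domains, KLF3 recruits the CtBP corepressors, and KLF9, KLF10, KLF11 and KLF13 recruit the SIN3 corepressor complex. In the intestine KLF4 is known from differentiated, non-dividing cells and KLF5 from the proliferating crypt. The genes described here are these 10 members, taken by symbol from the 36615 symbols of the expression table. All 10 were in the table and all 10 passed the filter on low values, which kept the 13728 genes that reached 1 FPKM in 3 or more libraries.

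The RNA came from HCT116, a human colorectal cancer cell line, as 12 libraries in 4 groups of 3. A p53+/+ line and a p53-/- line, labelled p53 WT and p53 null, were each studied with a scrambled control (scr) and after Mina53 knockdown (KD), called depleted below. Mina53 is a JmjC-family oxygenase encoded by RIOX2. The sources used here do not give the depletion reagent, the time of harvest, the number of clones behind the p53-/- line or whether replicates were separate cultures. Each p-value thus rests on library-to-library spread alone, and that spread may be technical. Differences between the genotypes are differences between these lines of cells.

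Levels are the authors' deposited values, read as FPKM, which are scaled to transcript length and can be compared between genes. Library totals ranged from 348822 to 372821 FPKM, and the depth in reads is unknown. RIOX2 was at 36.3% of its control level in depleted p53+/+ cells and at 22.3% in depleted p53-/- cells. CDKN1A, the p21 target of p53, was at 119 ± 1.97 FPKM in p53+/+ controls and 14.3 ± 0.546 in p53-/- controls (SD, n = 3 in each). The epithelial list of EPCAM, KRT8, KRT18, CDH1, CDX1, CDX2, KRT20 and VIL1 had 7 of 8 members in the table and 6 past the filter, and VIL1 was below 0.1 FPKM throughout. All 8 endothelial markers summed to 0.231 to 0.6802 FPKM and the 5 of 8 immune markers in the table to 0.411 to 0.709 FPKM, with PECAM1 and PTPRC below 0.1 FPKM in every library. Of the fibroblast list 6 of 8 were in the table, and it rested on COL1A1, the single member past the filter, with sums of 6.75 to 7.47 and 7.08 to 7.63 FPKM in p53+/+ and p53-/- controls and 10.2 to 10.7 and 11.7 to 12.2 FPKM after depletion. The epithelial sum spanned 1745 to 1769 FPKM in p53+/+ controls, 1369 to 1468 after depletion, 1451 to 1559 in p53-/- controls and 1234 to 1274 after depletion. It is carried by KRT8 and KRT18. Of the 6 markers tested 4 fell and 0 rose in p53+/+ depletion, beside 32.2% and 28.5% of all genes. In p53-/- depletion 2 fell and 1 rose, the last being CDX2 (1.798-fold), beside 29.9% and 28.9% of all genes. The part of these shifts in the results was not tested. Because the RNA is bulk, a change in a fraction of the cells and a change in every cell cannot be told apart.

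The make-up of the 10 members, as the share of each in their summed level, differed between the groups. The 10 levels summed to 139.7 ± 1.23 FPKM in p53+/+ controls, 125 ± 4.96 in depleted p53+/+ cells, 122 ± 5.68 in p53-/- controls and 165 ± 5.09 in depleted p53-/- cells (SD, n = 3). KLF4 and KLF10 led in p53+/+ controls with 22.5% ± 0.1003 and 22.4% ± 0.341 of that sum, and KLF2 ranked 7 of 10 there with 4.81% ± 1.11. In p53-/- controls the order was turned, with KLF2 ranked 1 at 26.7% ± 4.04 and KLF4 ranked 7 at 3.77% ± 0.189. After depletion KLF6 (25.8% ± 1.32) and KLF10 (25.6% ± 0.0938) led in p53+/+ cells, and KLF10 alone took 36.2% ± 0.428 in p53-/- cells. These shares are a description and were not tested. KLF16 is outside the 10 and not in the sum, and in p53-/- controls it was at 24.9 FPKM, above KLF10 at 23.0.

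**Figure D1:**
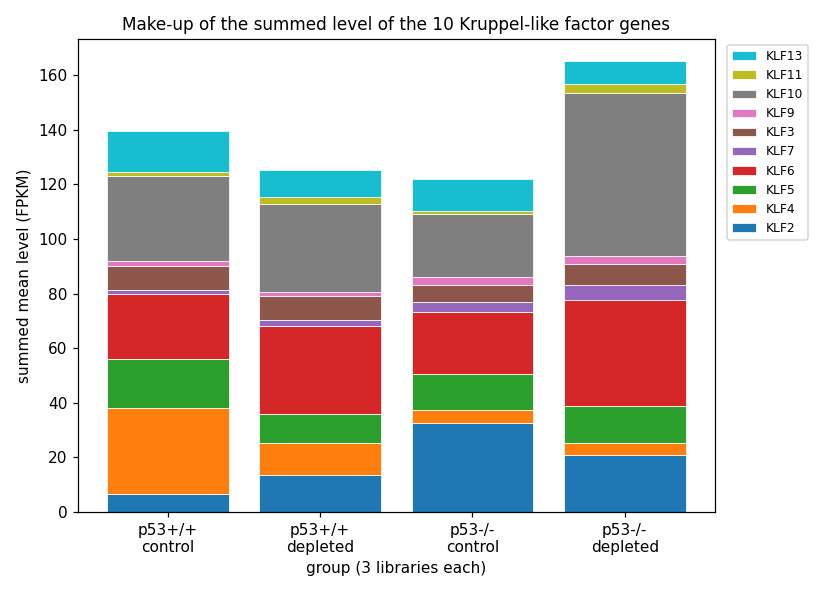
Stacked bars show the mean level in FPKM (vertical axis) of each of the 10 member genes in the 4 groups of 3 libraries (horizontal axis). KLF12 and KLF16 are outside the 10 and not drawn. The KLF4 band is widest in p53+/+ controls, the KLF2 band in p53-/- controls and the KLF10 band in depleted p53-/- cells, where it holds 36.2% of the sum.

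**Figure D2:**
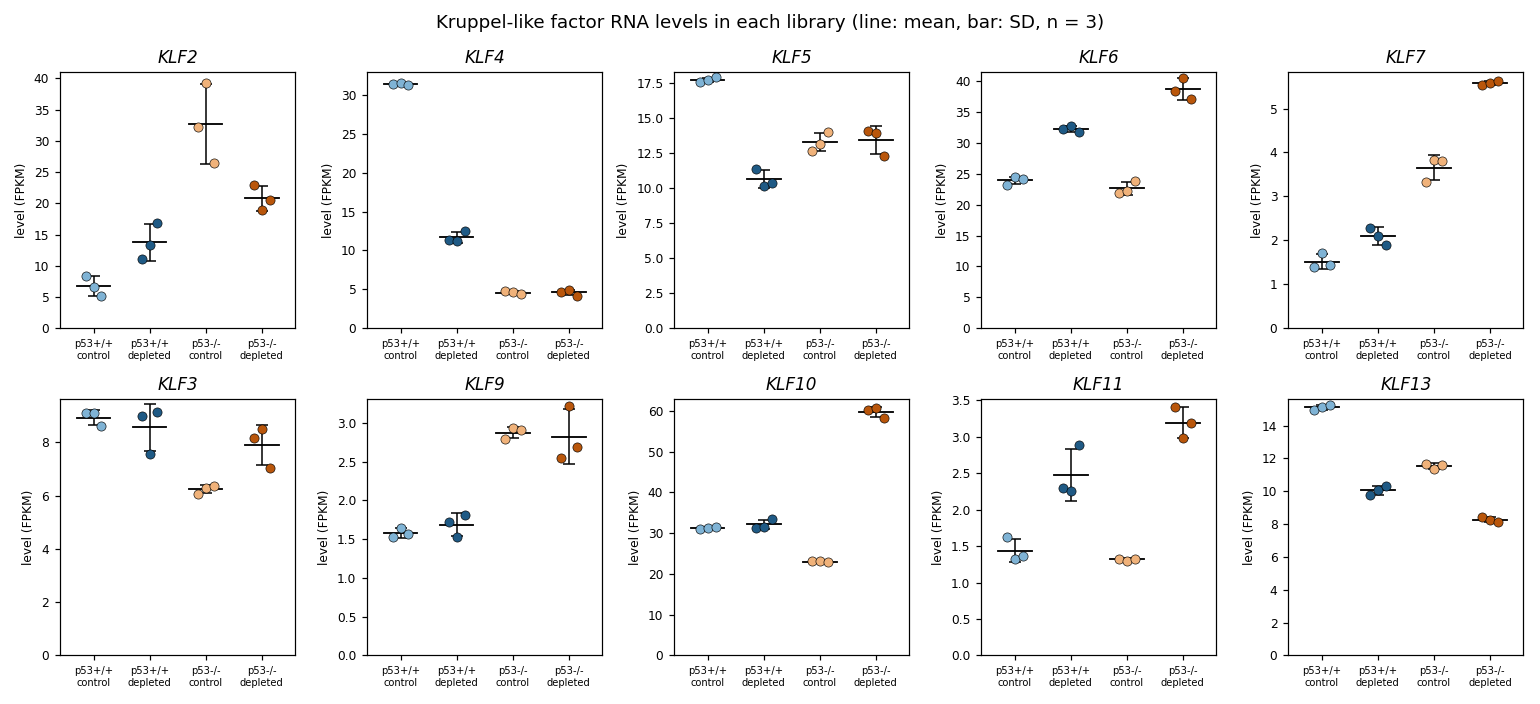
Each panel shows 1 gene, with the level in FPKM on the vertical axis from 0 and the 4 groups on the horizontal axis; points are libraries, lines the mean and bars the SD (n = 3). KLF4 runs from about 31.4 FPKM in p53+/+ controls down to 4.59 in p53-/- controls, and KLF10 is highest, at 59.8, in depleted p53-/- cells.

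In p53+/+ cells, depletion of Mina53 raised KLF2, KLF6, KLF7 and KLF11 and lowered KLF4, KLF5 and KLF13, while KLF3, KLF9 and KLF10 did not pass the test. The counts were 4 higher and 3 lower of 10, beside 28.5% higher and 32.2% lower among all 13728 genes tested, so the number of members called was near that of genes in general. In p53-/- cells depletion raised KLF3, KLF6, KLF7, KLF10 and KLF11 and lowered KLF2 and KLF13. That is 5 higher and 2 lower, beside 28.9% and 29.9% of all genes. The effects themselves were compared by subtracting the p53+/+ effect from the p53-/- effect. KLF3, KLF4, KLF5, KLF6, KLF10 and KLF11 had a higher effect in p53-/- cells and KLF2 a lower one, which is 6 and 1 of 10 beside 16.7% and 16.2% of all genes. The median of that difference was 0.34 over the members and 0.003001 over all genes. The members were chosen with earlier results of these data known, so these counts and medians are a description. Of the KLF genes outside the members that were tested, KLF12 had a difference of 0.32 and KLF16 of -0.23. Calls are from limma on log2(FPKM + 1) with adjusted p under 0.05 over all genes tested. With mitochondrial genes left out and the libraries rescaled, the split of all genes moved from 3916 higher and 4418 lower to 4944 and 3419 in p53+/+ depletion, and from 2286 and 2225 to 1830 and 2769 in the difference of the effects. Mitochondrial protein-coding RNA took 14.1% of the total in p53+/+ controls, 18.6% after depletion, 10.5% in p53-/- controls and 14.1% after depletion.

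**Figure D3:**
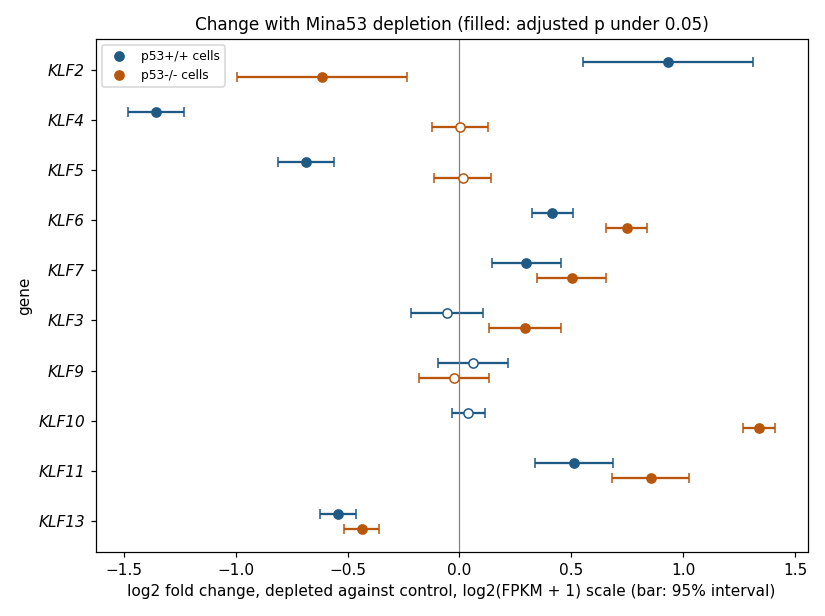
Points show the log2 fold change of depleted against control cells on the log2(FPKM + 1) scale (horizontal axis) for each gene (vertical axis), in p53+/+ cells in blue and p53-/- cells in orange, with 95% intervals; filled points have an adjusted p under 0.05. KLF2 lies on opposite sides of 0 in the genotypes, at 0.93 and -0.62, while the lowest point is KLF4 in p53+/+ cells (-1.36) and the highest KLF10 in p53-/- cells (1.34).

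KLF2, best known as the flow-induced factor of endothelium and a quiescence factor of T cells, moved in opposite directions in the genotypes. In p53+/+ cells its level was 8.399, 6.57 and 5.22 FPKM in the controls and 11.1, 13.3 and 16.8 after depletion. In p53-/- cells it was 32.2, 39.3 and 26.5 FPKM in the controls and 22.9, 18.9 and 20.6 after depletion. The 4 groups do not overlap, and within groups KLF2 was the most variable of the 10 genes in the fit. It rose 2.04-fold in p53+/+ cells (log2 fold change 0.93, SE 0.174, adjusted p = 0.000552) and fell to 63.5% of control in p53-/- cells (log2 fold change -0.62, SE 0.174, adjusted p = 0.009196). The depletion effects differed between the genotypes (difference -1.55, SE 0.246, adjusted p = 0.000615). Between the controls it was 4.86-fold higher in p53-/- cells (log2 fold change 2.13, SE 0.174, adjusted p = 5.37e-07), the highest level of the gene in the series. After depletion the lines were closer, at 20.8 ± 1.99 against 13.7 ± 2.91 FPKM (log2 fold change 0.58, SE 0.174, adjusted p = 0.0116), and this call was lost without p53+/+ depleted replicate 1 (log2 fold change 0.44, adjusted p = 0.0537). The pseudogene KLF2P1, whose reads may not be separable from those of KLF2, lay between 0.403 and 1.52 FPKM, below every KLF2 value. By limma KLF2P1 was called lower in p53-/- depletion (log2 fold change -0.40, adjusted p = 0.0446). In p53+/+ depletion it was not called (-0.21, adjusted p = 0.274). The sharing of reads was not tested.

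The KLF2 promoter is known for a binding site of MEF2 factors, through which the kinase ERK5 acts on the gene in endothelium. The 250 bases before the KLF2 start hold 1 match to the MEF2 site, from 120 to 111 bases before the start, shown here in capitals because it is the sole match among the members. The window is at chr19:16324576-16324825 on the plus strand of GRCh38.p14, from RefSeq, which is not the build of the expression table.
KLF2: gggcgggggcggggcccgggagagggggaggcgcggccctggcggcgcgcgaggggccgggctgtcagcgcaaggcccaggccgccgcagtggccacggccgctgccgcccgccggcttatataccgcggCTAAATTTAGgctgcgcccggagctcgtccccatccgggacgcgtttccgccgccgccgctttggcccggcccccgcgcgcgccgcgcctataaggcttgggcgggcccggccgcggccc
A MEF2 match was found in 2.8% of the 35116 RefSeq promoter windows of this length, and a match does not show binding. The RNA of the ERK5 pathway was counted as a list of 8 genes (MAP3K2, MAP3K3, MAP2K5, MAPK7 and MEF2A to MEF2D), of which 7 were tested. In p53+/+ depletion 0 rose and 2 fell, namely MAP3K2 (-0.43, adjusted p = 0.000108) and MEF2A (-0.37, adjusted p = 0.0002299). In p53-/- depletion 1 rose, MEF2D (0.17, adjusted p = 0.0234), and 1 fell, MAP2K5, which encodes the kinase of ERK5 (-0.24, adjusted p = 0.0165). Between the controls 3 were higher and 3 lower in p53-/- cells, with MAP3K3 at 5.42 and 7.87 FPKM and MEF2C at 2.44 and 1.29 FPKM in p53+/+ and p53-/- controls. Beside these counts, 28.5% of all genes rose and 32.2% fell in p53+/+ depletion, 28.9% rose and 29.9% fell in p53-/- depletion, and 36.7% were higher and 26.6% lower between the controls. In the difference of the effects 1 of the 7 was higher in p53-/- cells and 0 lower, beside 16.7% and 16.2% of all genes. The gene was MAP3K2 (0.57, adjusted p = 0.000737, limma). The list median was -0.0622 in p53+/+ and 0.0543 in p53-/- depletion, against -0.0162 and -0.00277 over all genes.

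KLF4, which promotes cell cycle exit and differentiation in the gut epithelium and is one of the reprogramming factors, fell in p53+/+ cells and was already low in p53-/- cells. Its level in p53+/+ cells was 31.5, 31.6 and 31.3 FPKM in the controls and 11.4, 11.2 and 12.5 after depletion. In p53-/- cells it was 4.78, 4.66 and 4.34 FPKM in the controls and 4.698, 4.91 and 4.198 after depletion. The p53+/+ groups lie apart from each other and above both p53-/- groups, which overlap. Depletion left 37.1% of the control level in p53+/+ cells (log2 fold change -1.36, SE 0.0572, adjusted p = 2.37e-09) and 100.3% in p53-/- cells (log2 fold change 0.00171, 95% interval -0.12 to 0.13, adjusted p = 0.983). The effects differed (difference 1.36, SE 0.0809, adjusted p = 7.25e-07). The controls themselves differed 6.85-fold, with KLF4 lower in p53-/- cells (log2 fold change -2.54, SE 0.0572, adjusted p = 8.59e-12), and the depleted cells 2.54-fold in the same direction (log2 fold change -1.18, adjusted p = 4.88e-09). CDKN1A, a gene that KLF4 is known to activate, rose with depletion in both genotypes, reaching 367 ± 4.32 FPKM from 119 ± 1.97 in the p53+/+ line and 31.2 ± 1.77 FPKM from 14.3 ± 0.546 in the p53-/- line, where KLF4 was not called (adjusted p = 7.89e-11 and 1.43e-09, limma).

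KLF5, which drives proliferation of crypt cells, also fell in p53+/+ cells alone. It was at 17.6, 17.7 and 17.9 FPKM in p53+/+ controls and 11.4, 10.2 and 10.4 after depletion. In p53-/- cells it was at 12.7, 13.2 and 13.98 FPKM in the controls and 14.1, 13.96 and 12.3 after depletion. The p53+/+ controls were highest, the depleted p53+/+ cells lowest, and the p53-/- groups lay between them and overlapped. Depletion left 60.1% of control in p53+/+ cells (log2 fold change -0.69, SE 0.05799, adjusted p = 7.43e-07), whereas p53-/- cells were at 101% (log2 fold change 0.0145, 95% interval -0.11 to 0.14, adjusted p = 0.848), and the effects differed (difference 0.701, SE 0.08202, adjusted p = 7.74e-05). KLF5 was lower in p53-/- than in p53+/+ cells among controls (log2 fold change -0.39, SE 0.05799, adjusted p = 8.36e-05) and higher among depleted cells (log2 fold change 0.31, SE 0.05799, adjusted p = 0.000524).

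KLF6, a widely expressed member that is induced early by many stimuli, rose in both genotypes. It was at 23.2, 24.4 and 24.2 FPKM in p53+/+ controls and 32.2, 32.7 and 31.8 after depletion, and at 21.9, 22.3 and 23.8 in p53-/- controls and 38.4, 40.6 and 37.1 after depletion. Every depleted library was above every control library. The rise was 1.35-fold in p53+/+ cells (log2 fold change 0.41, SE 0.0424, adjusted p = 3.82e-06) and 1.71-fold in p53-/- cells (log2 fold change 0.75, SE 0.0424, adjusted p = 3.15e-08), and it was larger in p53-/- cells (difference 0.33, SE 0.0599, adjusted p = 0.00136). The controls overlapped (log2 fold change -0.0777, 95% interval -0.17 to 0.0148, adjusted p = 0.128), with KLF6 called lower in p53-/- controls under TMM-type scaling (log2 fold change -0.14, adjusted p = 0.009798) and without p53-/- control replicate 3 (-0.11, adjusted p = 0.0423). After depletion KLF6 was higher in p53-/- cells (log2 fold change 0.26, SE 0.0424, adjusted p = 0.0002004).

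KLF4 and KLF6, which moved in opposite directions in p53+/+ cells, both have an E-box before their start. The E-box letters are CACGTG, which read the same on both strands, and 6.34% of all RefSeq windows of 250 bases hold them. The upstream windows of both genes are shown with the E-box in capitals, at chr9:107489770-107490019 (minus strand) and chr10:3785210-3785459 (minus strand) of GRCh38.p14.
KLF4: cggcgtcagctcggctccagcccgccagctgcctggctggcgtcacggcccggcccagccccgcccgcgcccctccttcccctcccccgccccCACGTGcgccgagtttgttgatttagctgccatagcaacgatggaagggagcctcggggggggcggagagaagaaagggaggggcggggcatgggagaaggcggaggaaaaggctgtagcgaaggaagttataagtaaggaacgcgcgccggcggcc
KLF6: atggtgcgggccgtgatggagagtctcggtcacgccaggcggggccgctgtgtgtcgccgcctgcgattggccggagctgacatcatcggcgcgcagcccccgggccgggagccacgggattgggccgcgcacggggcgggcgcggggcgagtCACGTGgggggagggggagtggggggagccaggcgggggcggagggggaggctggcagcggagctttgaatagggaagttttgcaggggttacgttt
The match lies 157 to 152 bases before the KLF4 start and 97 to 92 bases before the KLF6 start. The RefSeq table holds 13 windows for 8 of the 10 members, all but KLF3 and KLF10. The GC box (GGGCGG on either strand), a type of element that Kruppel-like and SP factors bind, was in 8 of these 13 windows, from every one of the 8 members but KLF9, and in 42.6% of all windows. The CACCC box (CACCC on either strand) was in 6 of the 13 and 54.7% of all windows. An E-box was in 4 of the 13, with 1 window each of KLF4, KLF6, KLF7 and KLF11. The cAMP response element (TGACGTCA) was in 1 of the 13, a window of KLF11, against 1.65% of windows. No member window had a match to the p53 half-site, which 5.57% of all windows have. With 13 windows and so low a share, this absence says little, and sites farther from the start were not searched. The motifs were chosen with the levels known, all were searched on both strands, and a GC box and a CACCC box can share bases.

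KLF7, a factor known from neurite outgrowth, was low, with all 4 groups apart. Its level was 1.39 to 1.705 FPKM in p53+/+ controls, 1.89 to 2.29 in depleted p53+/+ cells, 3.32 to 3.82 in p53-/- controls and 5.53 to 5.62 in depleted p53-/- cells. Depletion raised it in p53+/+ cells (log2 fold change 0.299, SE 0.0706, adjusted p = 0.00289) and in p53-/- cells (log2 fold change 0.501, SE 0.0706, adjusted p = 6.72e-05). The effects were not called different (difference 0.202, 95% interval -0.0158 to 0.42, adjusted p = 0.141). The scale shrinks changes at such levels, and with a pseudocount of 0.1 the log2 fold changes were 0.44 and 0.60. The difference was then 0.157 (adjusted p = 0.415, limma). It was 2.41-fold higher in p53-/- than p53+/+ controls and 2.66-fold higher among depleted cells (log2 fold changes 0.89 and 1.09, adjusted p = 4.19e-07 and 5.65e-08).

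KLF3, the CtBP-binding repressor, showed small changes. It was at 8.599 to 9.09 FPKM in p53+/+ controls, 7.55 to 9.15 after depletion, 6.06 to 6.37 in p53-/- controls and 7.05 to 8.48 after depletion, and only the p53-/- controls lay apart from the other groups. KLF3 was lower in p53-/- than in p53+/+ controls (log2 fold change -0.46, SE 0.0737, adjusted p = 0.000169) and rose with depletion in p53-/- cells (log2 fold change 0.29, SE 0.0737, adjusted p = 0.00442). It was not called in p53+/+ depletion (log2 fold change -0.0575, 95% interval -0.22 to 0.103, adjusted p = 0.522), where the sign turned without mitochondrial genes (0.0302) and without p53+/+ depleted replicate 2 (0.0215). The effects differed (difference 0.35, SE 0.104, adjusted p = 0.0222), a call lost without p53-/- depleted replicate 1 (adjusted p = 0.0519), without p53-/- depleted replicate 2 (0.0558) and without the filter on low values (0.0674). Among depleted cells KLF3 was not called between the genotypes (log2 fold change -0.104, 95% interval -0.26 to 0.0567, adjusted p = 0.236), but it was without p53+/+ depleted replicate 2 (-0.18, adjusted p = 0.0371).

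Among the SIN3-binding members, KLF10 had the largest depletion effect in p53-/- cells of all 10 genes. KLF10 is also known as TIEG1, an early gene of TGF-beta signalling. It was at 31.03, 31.2 and 31.5 FPKM in p53+/+ controls and 31.4, 31.5 and 33.5 after depletion. In p53-/- cells it was at 23.1, 23.1 and 22.8 FPKM in the controls and 60.3, 60.6 and 58.4 after depletion. The p53+/+ groups overlap, the p53-/- controls lie below them and the depleted p53-/- cells above. The rise in p53-/- cells was 2.596-fold (log2 fold change 1.34, SE 0.0335, adjusted p = 5.04e-11). The p53+/+ line had KLF10 at 103% of control (log2 fold change 0.0394, 95% interval -0.0336 to 0.11, adjusted p = 0.329), and with mitochondrial genes left out a rise was called there as well (log2 fold change 0.13, adjusted p = 0.00411). The effects differed (difference 1.299, SE 0.0473, adjusted p = 1.78e-08). KLF10 was lower in p53-/- than p53+/+ controls (log2 fold change -0.42, SE 0.0335, adjusted p = 3.92e-07) and 1.86-fold higher among depleted cells (log2 fold change 0.87, SE 0.0335, adjusted p = 7.08e-10).

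KLF11, or TIEG2, the closest relative of KLF10 in the TGF-beta response, rose in both genotypes from a low level. It was at 1.62, 1.33 and 1.37 FPKM in p53+/+ controls and 2.29, 2.26 and 2.89 after depletion, and at 1.33, 1.29 and 1.33 in p53-/- controls and 3.41, 2.98 and 3.19 after depletion. The depleted groups lie above the controls and apart from each other, and the controls overlap. The rise was 1.72-fold in p53+/+ cells (log2 fold change 0.51, SE 0.0798, adjusted p = 0.000139) and 2.42-fold in p53-/- cells (log2 fold change 0.85, SE 0.0798, adjusted p = 2.16e-06). The scale shrinks changes at such levels, and with a pseudocount of 0.1 the log2 fold changes were 0.74 and 1.21. The larger effect in p53-/- cells (difference 0.34, SE 0.113, adjusted p = 0.03499) was lost when any of 8 of the 12 libraries was left out, with adjusted p between 0.0528 and 0.0844. It held without p53+/+ control replicate 2 or 3, p53+/+ depleted replicate 3 or p53-/- depleted replicate 2. Among depleted cells KLF11 was higher in p53-/- cells (log2 fold change 0.27, SE 0.0798, adjusted p = 0.00992), and among controls it was not called (log2 fold change -0.0718, 95% interval -0.25 to 0.102, adjusted p = 0.452).

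The TGF-beta pathway upstream of KLF10 and KLF11 was counted over 8 genes, all of them tested. In p53+/+ depletion 3 rose and 3 fell, and in p53-/- depletion 4 rose and 2 fell, beside 28.5% and 32.2% of all genes in the first and 28.9% and 29.9% in the second. The ligand gene TGFB1 rose in both, from 20.1 ± 1.19 to 40.1 ± 3.43 FPKM and from 19.9 ± 0.288 to 35.2 ± 0.635 FPKM. SMAD4, the common mediator, fell in both (-0.59 and -0.52, adjusted p = 8.63e-07 and 3.21e-06). The receptor gene TGFBR2 rose in both (0.19 and 0.56, adjusted p = 0.0137 and 4.68e-06), and SMAD3, a receptor-activated SMAD, fell in both (-0.597 and -0.17, adjusted p = 2.62e-07 and 0.00692). In the difference of the effects 4 of 8 were higher in p53-/- cells and 0 lower, beside 16.7% and 16.2% of all genes. In order of p they were SMAD3 (0.43), TGFBR2 (0.38), SKIL (0.47), which encodes a SMAD corepressor, and SMAD7 (0.45), which encodes an inhibitory SMAD (adjusted p = 0.000352, 0.00422, 0.00573 and 0.0273).

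KLF13, known as an activator of the chemokine gene CCL5 in T cells, fell in both genotypes. It was at 14.96, 15.1 and 15.2 FPKM in p53+/+ controls and 9.78, 10.1 and 10.3 after depletion. In p53-/- cells it was at 11.7, 11.4 and 11.6 FPKM in the controls and 8.42, 8.27 and 8.11 after depletion. All 4 groups lie apart. Depletion left 66.5% of control in p53+/+ cells (log2 fold change -0.54, SE 0.0365, adjusted p = 1.03e-07) and 71.6% in p53-/- cells (log2 fold change -0.44, SE 0.0365, adjusted p = 8.13e-07), and the effects were not called different (difference 0.11, 95% interval -0.00585 to 0.22, adjusted p = 0.133). KLF13 was lower in p53-/- cells among controls (log2 fold change -0.36, adjusted p = 3.296e-06) and among depleted cells (-0.25, adjusted p = 6.06e-05).

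KLF9, a factor induced by glucocorticoid and thyroid hormone, followed genotype and was not called with depletion. It was at 1.53 to 1.65 FPKM in p53+/+ controls, 1.53 to 1.81 after depletion, 2.79 to 2.93 in p53-/- controls and 2.55 to 3.22 after depletion. The p53-/- libraries all lay above the p53+/+ libraries, and within a genotype the groups overlapped. KLF9 was 1.82-fold higher in p53-/- controls (log2 fold change 0.59, SE 0.0717, adjusted p = 1.69e-05) and 1.67-fold higher in depleted p53-/- cells (log2 fold change 0.505, SE 0.0717, adjusted p = 5.604e-05). With depletion it was at 107% of control in p53+/+ cells (log2 fold change 0.0588, 95% interval -0.0976 to 0.22, adjusted p = 0.4997) and 98.2% in p53-/- cells (log2 fold change -0.0231, 95% interval -0.18 to 0.13, adjusted p = 0.802), and the effects were not called different (difference -0.0819, 95% interval -0.303 to 0.14, adjusted p = 0.5696).

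Between the genotypes, KLF2, KLF7 and KLF9 were higher in p53-/- controls and KLF3, KLF4, KLF5, KLF10 and KLF13 lower, while KLF6 and KLF11 were not called. That is 3 higher and 5 lower of 10, beside 36.7% and 26.6% of all genes. After depletion 7 were higher in p53-/- cells, namely KLF2, KLF5, KLF6, KLF7, KLF9, KLF10 and KLF11, and KLF4 and KLF13 were lower, beside 37% and 27.3% of all genes. KLF5 and KLF10 were called on opposite sides in controls and depleted cells, and the share of all genes called so was not counted. The median log2 fold change over the members was -0.22 in controls and 0.29 in depleted cells, against 0.0583 and 0.0605 over all genes. Because the members were chosen with earlier results known, these medians too are a description. Each genotype comparison shares its libraries with the depletion comparisons, so the values stand side by side and are not independent.

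**Figure D4:**
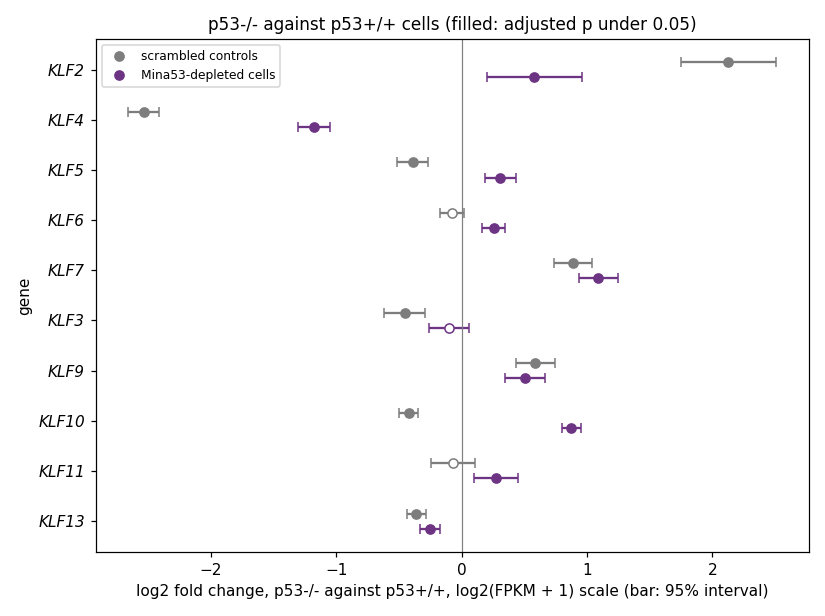
Points show the log2 fold change of p53-/- against p53+/+ cells on the log2(FPKM + 1) scale (horizontal axis) for each gene (vertical axis), for scrambled controls in grey and depleted cells in purple, with 95% intervals; filled points have an adjusted p under 0.05. KLF2 and KLF4 differ most between the controls, at 2.13 and -2.54, and both lie nearer to 0 after depletion.

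The other family genes were counted with the same test. Of the KLF genes outside the 10 members, KLF1 was not found by symbol in the expression table. KLF12 and KLF16 were tested, and KLF8, KLF14, KLF15, KLF17 and KLF18 stayed below the filter. KLF16, a SIN3-binding member, fell in both genotypes, from 17.9 ± 0.532 to 11.99 ± 0.741 FPKM and from 24.9 ± 1.34 to 14.1 ± 0.396 FPKM (log2 fold change -0.54, SE 0.0515, adjusted p = 1.98e-06 and log2 fold change -0.77, SE 0.0515, adjusted p = 1.17e-07). KLF16 lost more in the p53-/- line (difference -0.23, SE 0.0729, adjusted p = 0.0297). KLF12, a CtBP-binding repressor, rose in p53-/- cells from 1.44 ± 0.0707 to 2.35 ± 0.0974 FPKM (log2 fold change 0.46, SE 0.0624, adjusted p = 5.17e-05) and was not called in p53+/+ cells (log2 fold change 0.13, 95% interval -0.00138 to 0.27, adjusted p = 0.0805), and the effects differed (difference 0.32, SE 0.0882, adjusted p = 0.0152). Of the 9 SP factors 6 were tested, and 1 rose and 3 fell in p53+/+ depletion, against 2 and 2 in p53-/- depletion. Of all genes 28.5% rose and 32.2% fell in the first and 28.9% and 29.9% in the second, so the number of SP factors called was near that of genes in general. SP5, a WNT target, rose in both genotypes from 0.6597 ± 0.188 to 2.34 ± 0.666 and from 1.34 ± 0.118 to 4.45 ± 0.332 FPKM (log2 fold changes 0.997 and 1.22, adjusted p = 2.29e-05 and 4.85e-06). SP1, the ubiquitous GC-box factor, fell in both (-0.45 and -0.17, adjusted p = 2.54e-06 and 0.00551), as did SP6 (-0.27 and -0.48, adjusted p = 0.00234 and 3.37e-05). SP4 fell in p53+/+ cells (-0.23, adjusted p = 0.0112) and SP3 rose in p53-/- cells (0.25, adjusted p = 0.00421).

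Genes described in the literature as targets of Kruppel-like factors moved in both directions. The list was not split by factor or by activation and repression, so its counts and medians do not measure the activity of the factors. Of the 28 listed 22 were tested, and ALPI, THBD, S1PR1, EDN1, CCL5 and ENG were below the filter. In p53+/+ depletion 11 rose and 6 fell, beside 28.5% and 32.2% of all genes (median 0.0786, against -0.0162 over all genes). CCND1, the cyclin D1 gene, rose from 85.9 ± 3.36 to 167 ± 3.37 FPKM. In p53-/- depletion 10 rose and 9 fell, beside 28.9% and 29.9% of all genes (median 0.0584, against -0.00277). There CCND1 rose from 110.2 ± 2.095 to 180.1 ± 3.83 FPKM. MAOB, a monoamine oxidase gene, fell in both genotypes, from 22.5 ± 0.359 to 12.3 ± 0.579 FPKM in p53+/+ and from 15.6 ± 0.341 to 6.83 ± 0.3696 FPKM in p53-/- cells. Between the genotypes the depletion effects differed for 16 of the 22, with 7 higher and 9 lower in p53-/- cells, beside 16.7% and 16.2% of all genes (median -0.0853, against 0.003001). The 3 of smallest p were PLAU, the urokinase gene (-0.698), EGFR (-0.68) and CDKN1B, the p27 gene (0.93), with adjusted p = 3.38e-06, 1.04e-05 and 1.35e-05.

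The genes with the pattern most like that of KLF2, KLF4, KLF5 and KLF6 were taken by Pearson correlation of log2(FPKM + 1) over the 12 libraries, among 2237 genes whose group means span at least 1 on that scale. The 12 points share 4 groups, so these correlations are a description. KLF5 and KLF6 do not reach that span themselves. Their widest group differences were -0.69 (KLF5, p53+/+ depletion) and 0.75 (KLF6, p53-/- depletion). Genes with changes no larger than theirs were thus not among the candidates. The nearest to KLF2 were the vitamin D hydroxylase gene CYP27B1 (r = 0.96003), the ion channel gene TRPM2 (0.9402) and the kallikrein gene KLK7 (0.937). KLK7 was at 5.95 and 11.2 FPKM in p53+/+ control and depleted cells and at 35.6 and 29.8 FPKM in p53-/- control and depleted cells. The nearest to KLF4 were LY6D (r = 0.997), the mitophagy receptor gene BNIP3L (0.995) and FRAT2 (0.993). BNIP3L was at 31.4, 14.1, 6.74 and 7.41 FPKM in p53+/+ controls, depleted p53+/+ cells, p53-/- controls and depleted p53-/- cells, and LY6D is listed at 0 in the p53-/- libraries. Among these candidates of wider span, the nearest to KLF5 were SERTAD2 (r = 0.958), EMP1 (0.956) and SCG2 (0.952). Those nearest to KLF6, again of wider span, were the histone demethylase gene KDM6B (r = 0.986), FAM214B (0.986) and MOSPD1 (0.986). KDM6B was at 10.1 and 19.1 FPKM in p53+/+ and at 9.12 and 24.2 FPKM in p53-/- control and depleted cells.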

How the data were processed

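Per the series design text, oligo(dT)-selected RNA was read on Illumina HiSeq, here for 12 HCT116 libraries. The authors' single deposited table has 36615 gene symbols and a header that names no unit. The deposited values were read as FPKM because they are not whole numbers, library totals differ, and ND4L and ND4, which share a mitochondrial transcript but differ in length, stood at a ratio of 0.9702 to 1.06. No whole-read step was found: of 3646 low genes, at most 0.713% shared a ratio between replicates, to 0.01 on the log2 scale. Depth is therefore unknown, and no counting interval is given. Per the submitters' processing notes, hg19 was the genome. Aligner, counting tool and annotation: not given in the sources used here. Groups came from the sample titles, and a KO prefix in the header was taken to mean the p53-/- line.

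Values were tested as log2(FPKM + 1) in R 4.3.3 by limma 3.58.1 (variance trend on), in 1 fit of all 12 libraries with a mean per group. Only genes reaching 1 FPKM in 3 or more libraries entered. P-values were adjusted by the Benjamini-Hochberg method over all 13728 genes in each of 5 comparisons, with a threshold of 0.05. Fold changes on this scale understate changes of low genes. The fit was run on simulated data with independent normal noise and effects added to the depleted p53+/+ group alone. That run checks the code and cannot speak to technical or shared replicates. Alternatives were a pseudocount of 0.1, no filter or a minimum of 5 FPKM, TMM-type scaling, leaving out mitochondrial genes, the groups compared alone, no variance trend, a replicate block, and leaving out each library. Named genes were the members, RIOX2, CDKN1A, any other KLF or SP gene, the called members with the 3 smallest p of each other list, and the 3 genes most similar to KLF2, KLF4, KLF5 and KLF6. Some genes that this rule names are not reported here. The members and lists were chosen with earlier results of these data known. Promoter windows came from RefSeq (GRCh38.p14), and the 250 bases before each start were searched on both strands.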

Additional observations from a re-analysis of the deposited data

Results flagged for a closer look

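Members whose depletion effect differed between the genotypes, by the limma test of the difference (p53-/- minus p53+/+, log2 scale), were marked for a closer look. KLF2 had a lower effect in p53-/- cells, at -1.55, with a rise in p53+/+ and a fall in p53-/- cells. A higher effect was found for KLF4 (1.36) and KLF5 (0.701), which fell in p53+/+ cells and were not called in p53-/- cells. KLF10 (1.299) and KLF3 (0.35) rose in p53-/- cells and were not called in p53+/+ cells, except that a rise of KLF10 was called there with mitochondrial genes left out (0.13). KLF6 (0.33) and KLF11 (0.34) rose in both, with a difference called in favour of p53-/- cells. For KLF11 that call was lost without any of 8 of the 12 libraries (adjusted p = 0.0528 to 0.0844, limma) and without the filter on low values (0.0888). For KLF3 it was lost without p53-/- depleted replicate 1 (0.0519) or 2 (0.0558) and without the filter (0.0674). The depletion of RIOX2 itself was also deeper in p53-/- cells, at 22.3% of control against 36.3% in p53+/+ cells, and its part in these differences was not tested.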

How the results depend on the processing

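Over 50 member results (10 genes in 5 comparisons), the processing alternatives gave 380 values, of which 373 kept direction and call, and leaving out single libraries gave 600, of which 579 did. None of the 38 called results changed sign under any of these. KLF9 and KLF11, at most 3.22 and 3.41 FPKM, were not tested under the minimum of 5 FPKM and gave no value there. Sign changes were limited to uncalled values near 0, and the cause was not tested. With mitochondrial genes left out the log2 fold change was 0.0302 for KLF3 in p53+/+ and 0.0132 for KLF9 in p53-/- depletion. KLF3 was at 0.0215 without p53+/+ depleted replicate 2. In p53-/- depletion KLF4 was at -0.0311 without control replicate 3, -0.0115 without depleted replicate 1 and -0.0382 without depleted replicate 2. KLF5 was at -0.01598 without control replicate 1, -0.0182 without depleted replicate 1 and -0.01204 without depleted replicate 2, and KLF9 at 0.0276 without depleted replicate 1. Without the filter on low values more genes are tested, and the calls of KLF3 and KLF11 in the difference (adjusted p = 0.0674 and 0.0888) and of KLF2 between depleted cells (adjusted p = 0.0504) were lost.

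With a minimum of 5 FPKM fewer genes are tested, and 2281 genes were lower in p53-/- controls (against 3656) and 2392 in depleted p53-/- cells (against 3753). Leaving out single libraries gave 4 to 6 members with a higher and 1 with a lower difference of effects, 6 to 7 higher and 2 to 3 lower between depleted cells, and 5 to 6 lower between controls. Replicate numbers are shared by the groups, but same-numbered libraries deviated together with correlations of only -0.102 to 0.156, so they were not taken as pairs. A replicate block left every count of members called as it was and gave 3817 higher and 4306 lower genes in p53+/+ depletion, and 3853 and 3965 in p53-/- depletion. Scaling moved the median over all genes by at most 0.0763 on the log2 scale. Over the 12 left-out libraries the highest values in p53-/- depletion were 0.0547 for KLF4 and 0.0737 for KLF5, and the lowest for KLF9 was -0.0967. The unknown depth limits what can be said of KLF7, KLF9 and KLF11, the lowest members.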

Other observations

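Cofactors of Kruppel-like factors were counted over 11 genes, all of them tested. In p53+/+ depletion 5 rose and 5 fell, and in p53-/- depletion 5 rose and 4 fell, beside 28.5% and 32.2% of all genes in the first and 28.9% and 29.9% in the second. SIN3B, a scaffold of the SIN3 complex, rose in both genotypes (log2 fold changes 0.57 and 0.36, adjusted p = 4.51e-08 and 2.84e-06), whereas its relative SIN3A fell in both (-0.41 and -0.19, adjusted p = 2.08e-06 and 0.0014999). FHL3, a LIM protein that binds KLF3, rose in both, from 8.15 ± 0.467 to 14.02 ± 0.355 and from 9.81 ± 0.285 to 17.02 ± 0.8895 FPKM. The acetyltransferase gene CREBBP was higher in p53-/- than p53+/+ controls, at 14.98 ± 0.166 against 8.27 ± 0.332 FPKM.

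Enzymes that add ubiquitin to Kruppel-like factors or remove it were counted over 12 genes, of which 11 were tested. In p53+/+ depletion 4 rose and 4 fell, and the same numbers, 4 and 4, were found in p53-/- depletion, beside the same shares of all genes. BAP1, a deubiquitinase that stabilises KLF5, fell in both genotypes, from 15.4 ± 0.0839 to 9.11 ± 0.2403 FPKM and from 25.1 ± 0.7204 to 14.8 ± 0.506 FPKM. FBXW7, the ubiquitin ligase subunit that targets KLF2 and KLF5, rose in both genotypes, with log2 fold changes of 0.62 and 0.43 (adjusted p = 1.92e-05 and 0.000444). The difference of the effects was called for 2 of the 11, STUB1 (-0.48) and SIAH1 (0.33), beside 16.7% of all genes higher and 16.2% lower.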
